A study of Homo sapiens with 4 samples.

Results

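The mitochondrial ribosomal proteins are the nuclear-encoded subunits of the ribosome that works inside mitochondria. The genes described here are the gene rows whose Ensembl identifier belongs to a protein-coding gene with a symbol of the form MRPL or MRPS followed by a number and, in a few cases, a letter. There were 78 such genes among 64252 gene rows, and all 78 had enough counts to be tested. The rule used only names, so no measured value decided which genes were taken. By their place in the human mitoribosome, 51 belong to the large subunit and 26 to the small subunit, with MRPS30 and MRPS18A counted with the large subunit despite their names. MRPS36 is now placed in the 2-oxoglutarate dehydrogenase complex and is given apart.

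The cells were SK-N-BE(2), an established human neuroblastoma line with amplified MYCN. One group of 2 libraries came from cells given a scramble shRNA (sh-Scb), a short hairpin RNA with no intended target, and the other group of 2 came from cells given an shRNA against IRF2BP2 (sh-IRF2BP2). Both groups thus carried an shRNA and differed in its target. All libraries are of this 1 line, and the labels give neither the time after delivery nor how many hairpin sequences were used.

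The mitochondrial ribosome translates the few proteins encoded by mitochondrial DNA, all of them core subunits of the respiratory chain or of ATP synthase. Its RNA core is made inside the organelle, whereas every protein of it is made in the cytosol and imported. Compared with its bacterial ancestor it has less RNA and more protein, and many of its proteins have no bacterial counterpart. Its large subunit holds the peptidyl transferase centre, the exit tunnel and the stalk that recruits translation factors, and its small subunit holds the decoding centre. MYC family factors, NRF1, the ETS factor GABP and YY1 are known regulators of nuclear genes for mitochondrial proteins.

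The libraries held between 30847699 and 34684651 counts. IRF2BP2 itself lay at 243 and 238 CPM (counts relative to the scaled library total) with scramble and at 89.6 and 87.5 CPM with its shRNA, so the libraries matched their labels. The 12 neuroblastoma markers were all tested; 8 of them fell and 3 rose with the IRF2BP2 shRNA, with a median log2 change of -0.68. Among the markers of other cell types, only PECAM1, CD3E and HBB were at 0 in every library. The 5 endothelial markers summed to between 0.874 and 1.46 CPM, the 6 blood markers to between 4.18 and 7.74 CPM and the 5 Schwann cell markers to between 1.98 and 2.88 CPM. Of 3 blood markers tested 1 fell, and of 3 Schwann cell markers tested 1 rose. The 1 endothelial marker tested was not called. The 7 fibroblast markers, some of which neuroblastoma cells also express, summed to 348 and 332 CPM with scramble and to 283 and 283 CPM with the IRF2BP2 shRNA, and of the 6 tested 2 rose and 4 fell. The part of these markers in the results was not tested.

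Transcripts of mitochondrial ribosomal proteins were mostly somewhat more abundant in the cells with the IRF2BP2 shRNA. Their counts together made up 0.397% and 0.407% of the scramble libraries and 0.461% and 0.463% of the libraries with the IRF2BP2 shRNA. Both subunits showed this, with large subunit genes at 0.267% and 0.275% against 0.310% and 0.310%, and small subunit genes at 0.129% and 0.131% against 0.149% and 0.151%. For either subunit, both IRF2BP2 shRNA libraries lay above both scramble libraries. The sum over the 78 genes rose from 4026 ± 84.2 to 4612 ± 30.5 CPM (SD, n = 2), which is 14.6% more, given here as a description. In bulk libraries a changed share of cells and a changed amount of RNA per cell cannot be told apart.

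Of the 78 genes, 35 rose, 4 fell and 39 did not pass the test (edgeR quasi-likelihood test, adjusted p under 0.05 over all genes tested). The test called 42.0% of the 19093 genes tested, with 20.6% higher and 21.4% lower. Of the mitochondrial ribosomal protein genes, 44.9% were called higher and 5.13% lower. Since calls are more frequent among well expressed genes, protein-coding genes in the same range of levels are the closer comparison: of 8433 such genes 57.1% were called, with 31.9% higher and 25.2% lower. Their share of calls, 39 of 78, was thus no larger than among others of their level, and most of their calls were on the higher side.

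The fitted log2 fold change (IRF2BP2 shRNA over scramble) had a median of 0.21 over the 78 genes, with quartiles at 0.08 and 0.30 and a range from -0.51 to 0.56. The median was -0.01 over all genes tested and 0.05 over the protein-coding genes in their range of levels. Values were above 0 for 66 genes and below 0 for 12. The changes were small: no called gene moved by more than 1.5-fold. Both IRF2BP2 shRNA libraries lay above both scramble libraries for 56 genes and below them for 7, and the groups overlapped for 15. Such separation is frequent with 2 libraries a group, and 70.4% of all genes tested showed it, with 34.4% higher and 36.0% lower. Among the 8433 protein-coding genes in the same range of levels 80.0% showed it, with 3792 higher and 2954 lower. The share among the 78 genes was 80.8%, close to that of others of their level, with most of it on the higher side.

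**Figure D1:**
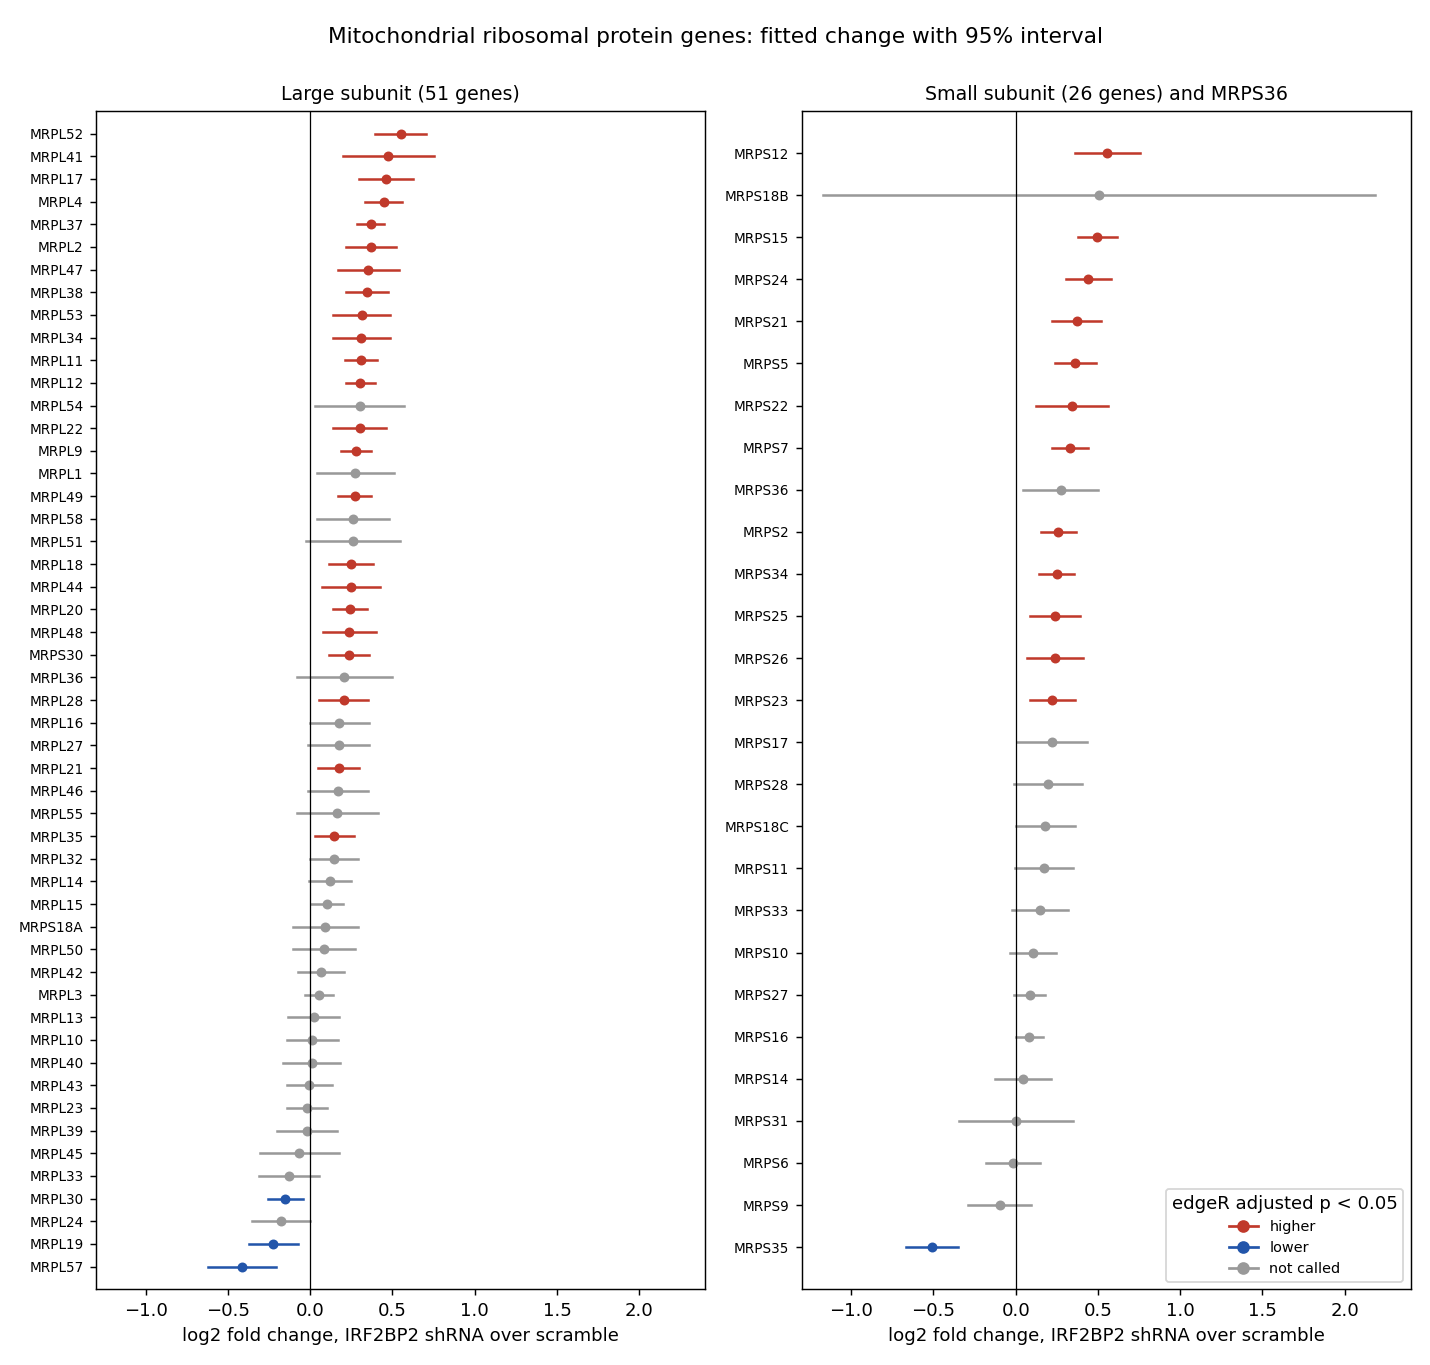
Fitted log2 fold change (x axis, IRF2BP2 shRNA over scramble) of each of the 78 genes (y axis), with its 95% interval as a line; red marks genes called higher, blue genes called lower and grey genes not called by edgeR at an adjusted p under 0.05. Most points lie right of 0, between -0.51 for MRPS35 and 0.56 for MRPS12, and MRPS18B has by far the widest interval.

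Library by library, the median over the genes of the log2 ratio to the scramble mean was -0.02 and 0.02 in the scramble libraries and 0.19 and 0.24 in the IRF2BP2 shRNA libraries. IRF2BP2 shRNA replicate 2 had the highest value of the 4 libraries for 41 genes and replicate 1 for 27, against 5 in each scramble library. Scramble replicate 1 had the lowest value for 44 genes and scramble replicate 2 for 21. The shift was therefore present in each IRF2BP2 shRNA library and was not carried by a single one.

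**Figure D2:**
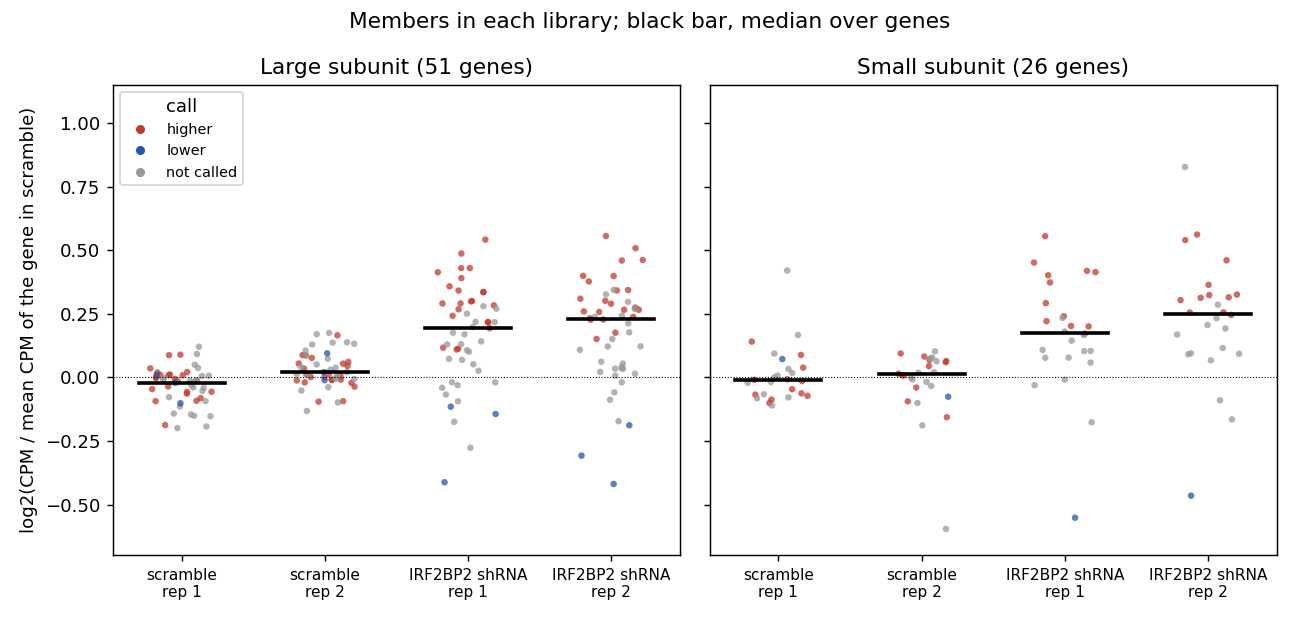
Log2 of the CPM of each gene over its mean CPM in scramble (y axis) in each of the 4 libraries (x axis), for the large subunit on the left and the small subunit on the right; each point is 1 gene, coloured by its call, and the black bar is the median over genes. The medians of the IRF2BP2 shRNA libraries lie above those of the scramble libraries in both panels, while blue points, the genes called lower, drop away from the rest.

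The promoters were read as well, since many of these genes moved in 1 direction. RefSeq promoter windows (GRCh38.p14, from 250 bases before to 50 bases after a gene's start) were found for 69 of the 78 genes, with 85 windows in all. A set of 4 motifs was searched on both strands. The ETS core CCGGAAG, which GABP binds, stood in 38.8% of these windows, against 10.3% of all 35116 windows and 12.8% of the 22198 protein-coding ones. The YY1 motif AAGATGGC stood in 27.1%, against 2.89% and 3.53%. The E-box CACGTG, which MYC family factors bind with MAX, stood in 10.6%, against 7.26% and 8.34%, and the NRF1 core CGCATGCG in 3.53%, against 2.02% and 2.49%. At least 1 of the 4 was present in 61.2% of the windows of mitochondrial ribosomal protein genes. The share was 19.9% of all windows and 23.9% of protein-coding ones. The median GC content was 60.3% in the windows of mitochondrial ribosomal protein genes, 58.7% in all windows and 62.3% in protein-coding ones. The ETS core ends in the AAG with which the YY1 motif begins, so 1 stretch could match both. The YY1 matches in these genes were not joined to an ETS core in this way. A match is a description of the sequence only.

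Motif shares were set side by side for the genes that rose and those not called. The ETS core was in 37.8% of the 45 windows of genes called higher and in 41.7% of the 36 windows of genes not called. The YY1 motif was in 26.7% and 30.6% of these windows, the E-box in 8.89% and 13.9%, and the NRF1 core in 4.44% and 2.78%. Among the 4 windows of the genes that fell, 1 held the ETS core and none held any of the other motifs. These shares are given with no test.

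Stretches of 30 bases with the YY1 motif in capitals are shown for 4 genes that rose and 3 that were not called, because the motif occurs in both. They are in the direction of the gene, 5′ to 3′.
MRPS24 (higher, chr7:43869480-43869509, minus strand): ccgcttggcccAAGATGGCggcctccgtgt
MRPL38 (higher, chr17:75904860-75904889, minus strand): aggccggagggAAGATGGCggcgccctggt
MRPS7 (higher, chr17:75261887-75261916, plus strand): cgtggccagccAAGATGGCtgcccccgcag
MRPL52 (higher, chr14:22829812-22829841, plus strand): aacccagattcAAGATGGCgacttcctgct
MRPS18B (not called, chr6:30617852-30617881, plus strand): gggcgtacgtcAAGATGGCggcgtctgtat
MRPS10 (not called, chr6:42217834-42217863, minus strand): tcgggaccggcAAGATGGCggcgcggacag
MRPL45 (not called, chr17:38297170-38297199, plus strand): tttgcgggaacAAGATGGCagcccccatac

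The 22 YY1 matches lay in 21 genes, 18 of them in the direction of the gene and 16 of them after its start. In 13 matches, each in a different gene, the ATG inside the motif is the annotated start codon of the protein. Of the stretches printed above this holds for all but that of MRPL52, whose matches lie before the RefSeq start. The 40 ETS matches lay in 30 genes, 28 of them within 50 bases of the start.

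The next stretches show the ETS core in the gene with the largest rise and in MRPL3, which was not called, in both within 50 bases of the start, and in a gene that fell, where it lies farther before the start, followed by the NRF1 core and the E-box in 3 genes that rose. Among genes with a window, the E-box was in 4 of 32 that rose and in 5 of 33 not called. For the NRF1 core these counts were 2 and 1. In the stretches the motif is again in capitals, and where the match is on the other strand the ETS core reads CTTCCGG.
MRPS12, ETS (higher, chr19:38930928-38930957, plus strand): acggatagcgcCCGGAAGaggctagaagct
MRPL3, ETS (not called, chr3:131502985-131503014, minus strand): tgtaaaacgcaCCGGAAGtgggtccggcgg
MRPL30, ETS (lower, chr2:99181028-99181057, plus strand): ggtctgctgcgCTTCCGGgaagtggtcatg
MRPL17, NRF1 core (higher, chr11:6683402-6683431, minus strand): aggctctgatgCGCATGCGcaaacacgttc
MRPL37, E-box (higher, chr1:54199985-54200014, plus strand): tgcgcttcacctCACGTGaggattttccag
MRPS2, E-box (higher, chr9:135499897-135499926, plus strand): cgacggccaggtCACGTGactggggagcga

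**Figure D3:**
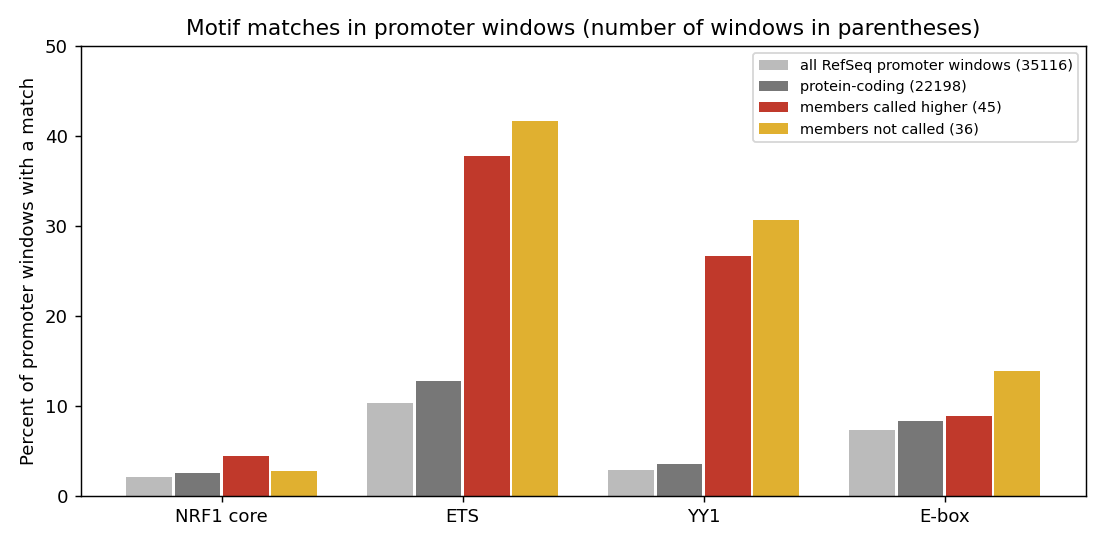
Percent of promoter windows that hold each motif on either strand (y axis) for the NRF1 core, the ETS core, the YY1 motif and the E-box (x axis); bars compare all RefSeq windows, protein-coding windows, and windows of mitochondrial ribosomal protein genes called higher or not called. For ETS and YY1 both sets of mitochondrial ribosomal protein genes stand above the background bars and differ little from each other.

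In the small subunit, 12 of 26 genes rose and 1 fell, with a median log2 change of 0.22. MRPS12, the counterpart of bacterial S12 at the decoding centre, lay at 20.1 and 17.7 CPM with scramble and at 27.8 and 27.9 CPM with the IRF2BP2 shRNA. Both IRF2BP2 shRNA libraries were thus above both scramble libraries. Its log2 fold change of 0.56 (SE 0.09, edgeR's adjusted p = 0.000417) was the highest of the 78 genes. MRPS12 (chromosome 19, 38930548 to 38933162, plus strand, GRCh38) shares 349 exonic bases with SARS2, the mitochondrial seryl-tRNA synthetase gene on the other strand. The libraries do not mark strand, so reads from the shared bases cannot be assigned; SARS2 itself was not called (log2 fold change 0.08, edgeR's adjusted p = 0.540).

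MRPS15, a conserved subunit that binds the small rRNA, lay at 57.5 and 58.1 CPM with scramble and at 79.1 and 84.0 CPM with the IRF2BP2 shRNA. The groups stood well apart, and the log2 fold change was 0.50 (SE 0.05, edgeR's adjusted p = 1.97e-05). MRPS24, the counterpart of bacterial S3 at the entry of the mRNA channel, lay at 54.8 and 61.6 CPM against 77.8 and 80.1 CPM (log2 fold change 0.44, edgeR's adjusted p = 0.00016). MRPS5, which also lines the mRNA entry, lay at 56.0 and 59.6 CPM against 76.3 and 72.3 CPM (0.36, edgeR's adjusted p = 0.000358). In both genes the IRF2BP2 shRNA libraries were the higher ones and the groups did not overlap. MRPS21 had 63.6 and 72.8 CPM against 90.9 and 85.5 CPM (0.37, edgeR's adjusted p = 0.00134). MRPS7, which binds rRNA in the head of the subunit, rose by 0.33, MRPS2 by 0.26 and MRPS34, a subunit with no bacterial counterpart, by 0.25 on the log2 scale.

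MRPS35, a mitochondria-specific subunit, went the other way and had the largest fall of the 78 genes. It lay at 63.3 and 57.1 CPM with scramble and at 41.1 and 43.6 CPM with the IRF2BP2 shRNA, so both IRF2BP2 shRNA libraries were far below both scramble libraries. The log2 fold change was -0.51 (SE 0.07, edgeR's adjusted p = 0.000138). MRPS35 (chromosome 12, 27710773 to 27756295, plus strand) has no annotated exon overlap with a gene on the other strand. MRPS16 and MRPS27 are among the small subunit genes with the highest CPM. They had log2 fold changes of 0.08 and 0.09 and were not called (edgeR's adjusted p = 0.102 and 0.130).

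The large subunit had 23 rises and 3 falls among 51 genes, and their median change was 0.20. MRPL52, a mitochondria-specific subunit, lay at 41.3 and 46.8 CPM with scramble and at 64.1 and 64.7 CPM with the IRF2BP2 shRNA. The groups did not overlap, and the log2 fold change of 0.55 (SE 0.07, edgeR's adjusted p = 7.03e-05) was the highest of the large subunit. MRPL37, another mitochondria-specific subunit, had 108 and 108 CPM against 139 and 141 CPM, a log2 fold change of 0.37 with the smallest standard error of all 78 genes (0.04, edgeR's adjusted p = 1.08e-05). MRPL41 had 43.4 and 55.5 CPM against 69.3 and 68.0 CPM (0.48, SE 0.11, edgeR's adjusted p = 0.0173). Its scramble libraries were unequal, and it was no longer called when IRF2BP2 shRNA replicate 1 was left out (edgeR's adjusted p = 0.153) or when replicate 2 was (0.157), although the fitted change stayed at 0.47 and 0.49.

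Among conserved subunits close to the peptidyl transferase centre and the tunnel, MRPL4 had 68.3 and 74.5 CPM with scramble and 96.3 and 98.4 CPM with the IRF2BP2 shRNA (log2 fold change 0.45, SE 0.05, edgeR's adjusted p = 3.32e-05). MRPL2 had 34.7 and 35.4 CPM against 44.2 and 46.2 CPM (0.37, edgeR's adjusted p = 0.00124). For both, each IRF2BP2 shRNA library was above each scramble library. MRPL3, also a conserved protein of this region and the transcript with the highest CPM of the 78, had 155 and 158 CPM against 164 and 161 CPM. Its log2 fold change was 0.05 and was not called (edgeR's adjusted p = 0.286), with a 95% interval from -0.03 to 0.14 that lies below the fitted values of MRPL2 and MRPL4. The difference between these genes was not itself tested.

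The stalk and its base recruit the factors of initiation and elongation. The 6 genes taken as stalk genes also include MRPL1, which belongs to the separate L1 stalk and not to this one. Of the 6 genes 3 rose and none fell, with a median log2 change of 0.30. MRPL12, the stalk protein that is also known to bind the mitochondrial RNA polymerase, had 120 and 118 CPM with scramble and 151 and 143 CPM with the IRF2BP2 shRNA (0.30, SE 0.04, edgeR's adjusted p = 9.23e-05). MRPL11, at the base of the stalk, rose by 0.31 and MRPL53 by 0.31 on the log2 scale. MRPL54 and MRPL1 had values of 0.30 and 0.27 and were not called (edgeR's adjusted p = 0.0712 and 0.0593), and their groups did not overlap. Both were called without scramble replicate 2 (edgeR's adjusted p = 0.00169 for MRPL54 and 0.00824 for MRPL1), and by limma voom (adjusted p = 0.0470 and 0.0491). MRPL10, which carries the MRPL12 copies, was not called.

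At the exit tunnel, where new proteins leave the ribosome next to the inner membrane, 4 of 8 genes rose and the other 4, none of them called, had fitted values below 0, of which MRPL39 and MRPL45 turned above 0 in some alternative fits. MRPL17 had 36.5 and 40.8 CPM with scramble and 51.5 and 55.0 CPM with the IRF2BP2 shRNA (log2 fold change 0.46, SE 0.08, edgeR's adjusted p = 0.000436). MRPL47 had 37.4 and 32.9 CPM against 47.4 and 42.5 CPM (0.35, edgeR's adjusted p = 0.00588), and MRPL22, which reaches into the tunnel, rose by 0.30. In MRPL17 and MRPL47 the groups stood apart. MRPL44, at 0.25, was called (edgeR's adjusted p = 0.0289), but not without scramble replicate 2 (0.106) or IRF2BP2 shRNA replicate 1 (0.241), nor with upper quartile scaling (0.0715) or DESeq2 (0.0531). MRPL24 had a value of -0.18 and was not called (edgeR's adjusted p = 0.0956), though it was without IRF2BP2 shRNA replicate 2 (edgeR's adjusted p = 0.0317, log2 fold change -0.27), with upper quartile scaling (0.0389) and among genes averaging at least 10 CPM (0.0326). MRPL23 had -0.02 (edgeR's adjusted p = 0.818). MRPL39 and MRPL45, the latter a membrane anchor of the ribosome, were not called.

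The central protuberance, where the ribosome touches tRNA, had 3 rises and no fall among 7 genes, with a median log2 change of 0.17. MRPL38 had 55.6 and 54.9 CPM with scramble and 67.6 and 72.9 CPM with the IRF2BP2 shRNA (0.35, SE 0.06, edgeR's adjusted p = 0.000561). MRPL18 (0.25) and MRPL48 (0.24) were also called, the former not without IRF2BP2 shRNA replicate 2 (edgeR's adjusted p = 0.0556) and the latter not without scramble replicate 2 (0.131) or IRF2BP2 shRNA replicate 2 (0.0855), nor with upper quartile scaling (0.0602). MRPL27 (0.17), MRPL46 (0.17) and MRPL55 (0.17) were not called. Without scramble replicate 1 MRPL27 was called (edgeR's adjusted p = 0.00363), and without scramble replicate 2 so was MRPL55 (0.0462).

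Besides MRPS35, the genes that fell were MRPL57, MRPL19 and MRPL30. MRPL57, a small mitochondria-specific subunit, lay at 23.3 and 26.7 CPM with scramble and at 18.8 and 18.7 CPM with the IRF2BP2 shRNA, with no overlap. Its log2 fold change was -0.41 (SE 0.09, edgeR's adjusted p = 0.00392). MRPL19, the counterpart of bacterial L19, had 57.5 and 59.2 CPM against 52.8 and 47.2 CPM (-0.22, edgeR's adjusted p = 0.0213), and MRPL30 had 82.3 and 81.1 CPM against 75.4 and 71.7 CPM (-0.15, edgeR's adjusted p = 0.0278). In both genes the IRF2BP2 shRNA libraries were the lower ones, by little. The call of MRPL19 was lost without scramble replicate 2 (edgeR's adjusted p = 0.0706) or IRF2BP2 shRNA replicate 2 (0.184). That of MRPL30 was lost without scramble replicate 1 (edgeR's adjusted p = 0.106) or IRF2BP2 shRNA replicate 2 (0.213), and DESeq2 called neither (adjusted p = 0.0567 for MRPL19 and 0.135 for MRPL30). Without a filter on low counts MRPL30 was not called either (edgeR's adjusted p = 0.0710).

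Among the remaining rises, those of MRPL9 (0.28), MRPL49 (0.27), MRPL20 (0.24) and MRPS30 (0.23) on the log2 scale were called in every alternative fit. The rises of MRPL34, MRPL28, MRPL21, MRPL35, MRPS22, MRPS23, MRPS25 and MRPS26 each lost the call when at least 1 of the libraries was left out. For MRPL34 this was IRF2BP2 shRNA replicate 1 (edgeR's adjusted p = 0.0753). For MRPS22 it was scramble replicate 2 (0.112) or IRF2BP2 shRNA replicate 1 (0.0820), and for MRPS23 scramble replicate 2 (0.0507) or IRF2BP2 shRNA replicate 2 (0.0638). For MRPL21, MRPL28 and MRPS25 it was scramble replicate 1 (0.107, 0.113 and 0.0559) or IRF2BP2 shRNA replicate 2 (0.232, 0.246 and 0.113). MRPL35 and MRPS26 lost the call without any 1 of the 4 libraries, with edgeR's adjusted p-values of 0.0712 to 0.220 and 0.0593 to 0.147. Upper quartile scaling also ended the calls of MRPL21 (adjusted p = 0.103), MRPL28 (0.0872), MRPL35 (0.176) and MRPS26 (0.0703). DESeq2 did not call MRPL21 (0.0599), MRPL35 (0.131) or MRPS26 (0.0922). With a mean of at least 10 CPM in edgeR, MRPL21 (0.0581) and MRPL35 (0.0938) were not called, nor was MRPL35 by limma voom (0.0519). All of these genes had values above 0 in all 11 alternative fits.

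The 39 genes not called had log2 fold changes from -0.18 to 0.51, 31 of them above 0. In 21 of them both IRF2BP2 shRNA libraries lay above both scramble libraries, in 3 they lay below, and in 15 the groups overlapped. Such separation was seen in 70.4% of all genes tested, called or not. No share was taken over genes not called alone, so these counts do not show a change. MRPL58, a peptidyl-tRNA hydrolase that rescues stalled ribosomes and is built into the large subunit, had 21.4 and 25.9 CPM with scramble and 28.7 and 27.9 CPM with the IRF2BP2 shRNA (0.26, edgeR's adjusted p = 0.0537). MRPS36 had 14.8 and 16.8 CPM against 18.8 and 19.3 CPM (0.27, edgeR's adjusted p = 0.0536). Both missed the threshold narrowly although their groups did not overlap, and both passed it without scramble replicate 2 (edgeR's adjusted p = 0.00606 for MRPL58 and 0.0274 for MRPS36). They also passed it by library totals alone (0.0493 and 0.0495, adjusted p) and by limma voom (0.0413 and 0.0472). MRPL51, whose exons overlap those of NCAPD2 on the other strand, had 87.3 and 107 CPM against 117 and 115 CPM (0.26, edgeR's adjusted p = 0.129). It passed without scramble replicate 1 (edgeR's adjusted p = 0.0419) or 2 (1.37e-05), with DESeq2 (adjusted p = 0.00587) and without a filter on low counts (0.0468).

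A further 4 genes also passed without scramble replicate 2 and not otherwise: MRPS17 (0.22, edgeR's adjusted p = 0.0297 without that library), MRPL36 (0.21, 0.0243), MRPL16 (0.18, 0.0149) and MRPS11 (0.17, 0.0452). Another 11 genes not called, between -0.10 and 0.07 on the log2 scale, were MRPL10, MRPL13, MRPL39, MRPL40, MRPL42, MRPL43, MRPL45, MRPS6, MRPS9, MRPS14 and MRPS31. Their adjusted p-values by edgeR lay between 0.417 and 0.985, and the sign of each changed in at least 1 alternative fit. MRPL42 was called without scramble replicate 1 (edgeR's adjusted p = 0.0219). The other genes not called were MRPS28 (0.20), MRPS33 (0.15), MRPL32 (0.15), MRPL14 (0.12), MRPS10 (0.11), MRPL15 (0.10), MRPL50 (0.08) and MRPL33 (-0.13), again as log2 fold changes. A p that misses the threshold does not show that a level was equal.

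MRPS18 exists as 3 proteins from separate genes, which sit at different places of the mitoribosome. MRPS18A, in the large subunit, had a log2 fold change of 0.09 (edgeR's adjusted p = 0.459), which turned to -0.04 without IRF2BP2 shRNA replicate 2. MRPS18C, which takes the place of bacterial S18, had 0.18 (edgeR's adjusted p = 0.103). MRPS18B had 10.6 and 5.24 CPM with scramble and 8.53 and 14.0 CPM with the IRF2BP2 shRNA. The highest and the lowest library were of different groups, but the groups overlapped, and each group was widely spread. Its log2 fold change of 0.51 had a standard error of 0.52 (edgeR's adjusted p = 0.529), where no other of the 78 genes exceeded 0.16. Among protein-coding genes at 5 to 20 CPM the median standard error was 0.13, and 0.930% had one as large. Of the tested genes within 1 Mb of MRPS18B, the 9 at 5 to 20 CPM had a median standard error of 0.18.

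Per kilobase of exon, over all 4 libraries, MRPL12 and MRPS34 stood highest with 129 and 129 CPM per kb, and did not differ from each other beyond the spread of the libraries. MRPL15 followed with 77.2 and MRPL51 with 68.6 CPM per kb. Of the 1551 exonic bases of MRPL51, 486 are shared with NCAPD2 on the other strand. NCAPD2 had a mean of 462 CPM and was called lower (log2 fold change -0.38). Reads from the shared bases cannot be assigned, so the values of MRPL51 are uncertain. The lowest were MRPL46 with 4.19, MRPS18C with 4.75 and MRPS18B with 5.09 CPM per kb. These are levels relative to all annotated exons of a gene, and for genes with many annotated exons the length of the transcript that is made may be far shorter. Level also bore on the calls: 25 of the 39 genes above the median level rose and 3 fell, against 10 and 1 of the 39 at or below it, while the median log2 fold changes were 0.24 and 0.18.

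Subunits with and without a bacterial counterpart had similar counts. Of 46 conserved genes 21 rose and 2 fell (median 0.19), and of 31 mitochondria-specific genes 14 rose and 2 fell (median 0.24). Exons of 29 genes overlap exons on the other strand. Of these 16 rose and 1 fell (median 0.25), against 19 and 3 of the 49 without such overlap (median 0.20). Some overlapping genes were called higher, such as SYVN1 with MRPL49, COPB2 with MRPS22, GGA3 with MRPS7 and ACTL6A with MRPL47. Others were called lower, such as KLC4 with MRPL2, CYB5RL with MRPL37 and MIF4GD with MRPS7. No alternative fit separates the shared reads, which also concerns the steady calls of MRPL9, MRPL49 and MRPL20. Pseudogenes named after 34 of the genes are annotated in 74 rows. Their counts came to 0.309% of the counts of all mitochondrial ribosomal protein genes. For MRPS31 and MRPL45 the pseudogene rows held 54.4% and 24.4% as many counts as the gene, so their values are uncertain.

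A protein-coding neighbour that starts within 1000 bases on the other strand and runs away from the gene was found for 17 of the 78 genes (21.8%), against 7.38% of 19951 protein-coding genes. Whether such pairs share a promoter was not tested. Of the 17 partners 2 rose, none fell and 15 were not called. The rises are 11.8% of the partners, against 20.6% of all genes tested called higher and 21.4% called lower. Some of those not called had low levels, such as SLC7A7, LRRC46 and PNPLA7 with means of 0.501, 0.725 and 2.21 CPM. The rises were those of TCP1 beside MRPL18 and of IGHMBP2 beside MRPL21, which were also called higher, in calls that rest on single libraries as given above. NDUFB5 beside MRPL47, EME2 beside MRPS34 and SKA3 beside MRPL57 were not called. MRPL46 and MRPS11 are each other's partner, and both had a log2 fold change of 0.17. MRPS11 was called without scramble replicate 2 (edgeR's adjusted p = 0.0452), MRPL46 in no setting tried.

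Of the 5 mitoribosomal subunits with other names 4 rose and none fell. CHCHD1 had a log2 fold change of 0.41, GADD45GIP1 of 0.30 and AURKAIP1 of 0.25 (edgeR's adjusted p at most 0.00187). DAP3, a GTP-binding subunit, rose by 0.12 (edgeR's adjusted p = 0.0316), but not without scramble replicate 2 (0.116), IRF2BP2 shRNA replicate 1 (0.110) or replicate 2 (0.142). Nor was DAP3 called with upper quartile scaling (0.174), DESeq2 (0.114), a mean of at least 10 CPM (0.131) or limma voom (0.0532), all adjusted p-values. PTCD3, which has RNA-binding repeats, had 0.04 and was not called (edgeR's adjusted p = 0.492), and with upper quartile scaling its value was -0.01.

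Counts of the rRNA genes of the mitoribosome did not rise. How far such counts follow the amount of mature rRNA in these libraries was not tested. The rRNA genes were looked at after their values were known. MT-RNR1, of the small subunit, had 613 and 538 CPM with scramble and 478 and 492 CPM with the IRF2BP2 shRNA (log2 fold change -0.25, edgeR's adjusted p = 0.0111). MT-RNR2, of the large subunit, had 5553 and 5444 CPM against 5122 and 4988 CPM (-0.12, edgeR's adjusted p = 0.00377). In both the IRF2BP2 shRNA libraries were the lower ones. The call of MT-RNR1 was lost without IRF2BP2 shRNA replicate 1 (edgeR's adjusted p = 0.0711) and that of MT-RNR2 without replicate 2 (0.109) or without a filter on low counts (0.0501).

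Of 13 mitochondrially encoded proteins, which this ribosome makes, 5 fell in transcript level and none rose, with a median log2 change of -0.01. The falls included MT-CO3 (-0.36), MT-CO1 (-0.29), MT-ATP8 (-0.38) and MT-ATP6 (-0.25). All counts of mitochondrially encoded genes came to 7.27% and 7.10% of a scramble library and to 6.42% of each IRF2BP2 shRNA library. The nuclear genes of the respiratory chain resembled the mitochondrial ribosomal proteins in their counts: 39 of 79 tested rose and 3 fell (median 0.18), among them NDUFS5 (0.70) and ATP5PD (0.37). Of 84 cytosolic ribosomal protein genes tested, 7 rose and 35 fell (median -0.10), RPL4 and RPS3A each with -0.35.

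Proteins that assemble the mitoribosome or modify its rRNA rose in 13 of 28 cases (46.4%) and fell in 2 (7.14%). MALSU1, an assembly factor of the large subunit, had a log2 fold change of 0.46, the rRNA methyltransferase NSUN4 of 0.44, the assembly GTPase MTG2 of 0.42 and C1QBP of 0.34 (edgeR's adjusted p at most 0.00118). Of 17 translation factors and mRNA-handling proteins 4 rose and none fell: the elongation factor TUFM (0.26), the recycling factor MRRF (0.37), SLIRP (0.48) and TACO1 (0.25). These rises are 23.5% of the list, near the 20.6% called higher among all genes tested. Among protein-coding genes in the level range of the mitochondrial ribosomal protein genes the share was 31.9%. SLIRP was not called without IRF2BP2 shRNA replicate 1 (edgeR's adjusted p = 0.0889) or 2 (0.0867), nor TACO1 without scramble replicate 1 (0.174) or IRF2BP2 shRNA replicate 1 (0.345). TACO1 was also not called with upper quartile scaling (0.106), DESeq2 (0.0764), no filter (0.0668) or a mean of at least 10 CPM (0.0632), all adjusted p-values.

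Of 22 genes that charge mitochondrial tRNAs 8 rose (36.4%) and 3 fell (13.6%), against 20.6% and 21.4% of all genes tested. GATC fell by 0.27 on the log2 scale, and EARS2 (0.31) and GARS1 (0.24), which charge glutamate and glycine tRNAs, rose. Of 22 genes for mitochondrial DNA upkeep, transcription and RNA processing 10 rose (45.5%) and 3 fell (13.6%). HSD17B10, a subunit of the enzyme that cuts tRNAs at their 5′ ends, rose by 1.04, FASTK by 0.55 and the RNA polymerase POLRMT by 0.52, while ELAC2, which cuts tRNAs at their 3′ ends, had -0.52.

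Among 12 tested regulators of mitochondrial genes 7 rose (58.3%, against 20.6% of all genes tested) and none fell. PPARGC1B, a coactivator, had 15.3 and 14.6 CPM with scramble and 27.1 and 29.1 CPM with the IRF2BP2 shRNA (log2 fold change 0.91, edgeR's adjusted p = 8.9e-06). MYCN had 5355 and 5511 CPM against 7067 and 7167 CPM (0.39, edgeR's adjusted p = 5.09e-07). CLUH, which binds mRNAs of mitochondrial proteins, rose by 0.50 and the coactivator PPRC1 by 0.38. Of the factors whose motifs were counted in the promoters, MYCN was called higher, as given above, while NRF1 (0.08), YY1 (0.05) and GABPA (0.13) were not called (edgeR's adjusted p at least 0.166), and GABPB1 was not called either. NRF1 had a value of -0.13 without IRF2BP2 shRNA replicate 1. MYC was near 0 in all libraries and was not tested.

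**Figure D4:**
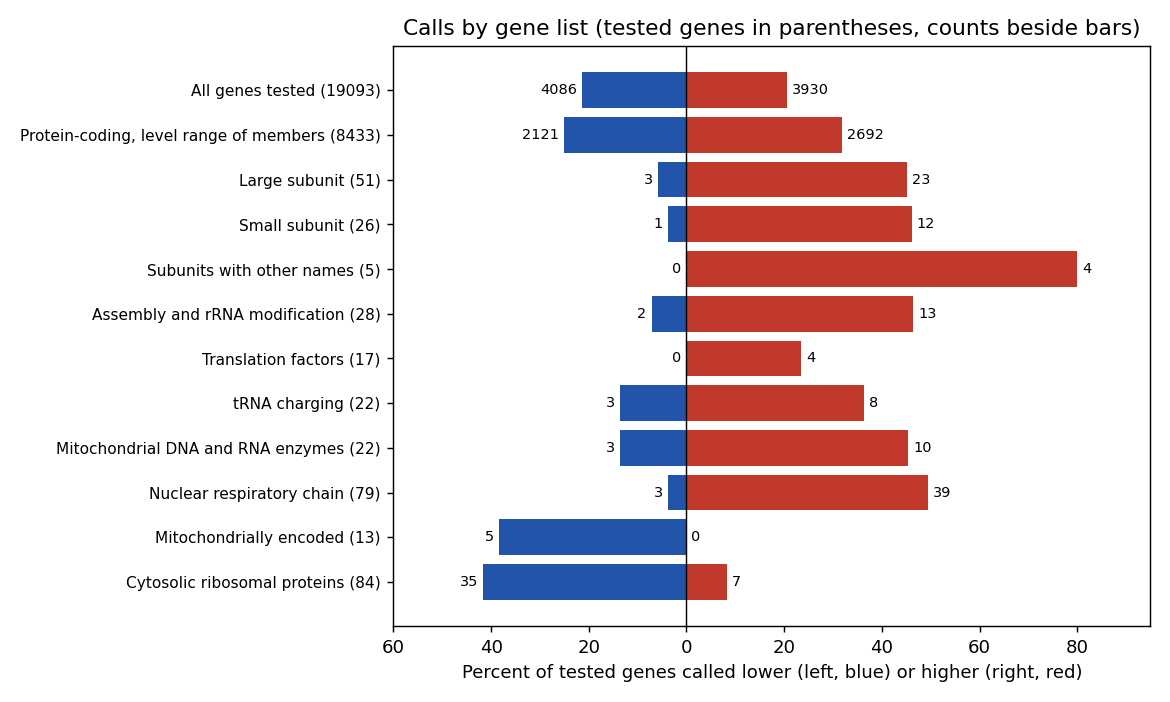
Percent of tested genes called higher (red, to the right) or lower (blue, to the left) by edgeR at an adjusted p under 0.05 in each gene list (y axis, number tested in parentheses), with counts beside the bars. Large and small subunit genes have 45.1% and 46.2% called higher and few lower, close to the nuclear respiratory chain with 49.4%, whereas the cytosolic ribosomal proteins have 41.7% called lower.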

How the data were processed

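RNA sequencing counts of 4 libraries were used. Raw counts per gene were deposited by the authors in 1 table, with 1 column per library. Reads were aligned with HISAT2 2.2.0 to hg38, per the submitters' processing notes. No source used here names the counting program or its annotation. Libraries were made with a TruSeq RNA kit that does not mark strand, per the labels' protocols. The control columns are headed NC, a term absent from the labels. They were assigned to the scramble shRNA by elimination, as the only other group is named in the remaining columns.

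Annotation was GENCODE release 29 (GRCh38), which held 56591 of the 64252 gene rows; 28934 rows had no count. Totals were 34684651 and 30847699 for scramble replicates 1 and 2, and 31871800 and 32082642 for IRF2BP2 shRNA replicates 1 and 2. The test was that of edgeR 4.0.16 (R 4.3.3): filterByExpr by group, TMM scaling, robust quasi-likelihood F-test, two-sided, Benjamini-Hochberg adjustment over 19093 genes, threshold 0.05. CPM values use the library total times the TMM factor (0.996 to 1.00). A standard error is the log2 fold change over the square root of F. The biological coefficient of variation was 9.52%. Tested on simulated data, the procedure made false calls above the threshold's rate where few genes differed. Within a group the counts differed by more than sampling noise (chi-square per degree of freedom 7.51 for scramble and 5.50 for the IRF2BP2 shRNA). The labels do not say that replicates were separate cultures, so p-values reflect only library-to-library spread, possibly technical.

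The genes and lists were chosen with earlier results of these data known, and lists are described by counts and medians with no test. Among the mitochondrial ribosomal protein genes the rule named the 12 largest called rises and all falls with groups that do not overlap, a few genes whatever their result, and others by structural group. Outside them it named up to 4 called genes per list with the smallest p. A gene that the rule took is not reported here. Alternatives were upper quartile scaling, library totals alone, DESeq2 1.42.0, no filter, a mean of at least 10 CPM, limma voom (limma 3.58.1), the replicate number as a block, and leaving out each library. Leaving out a library leaves a group with 1 library, assumed to vary like the other group.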

Additional observations from a re-analysis of the deposited data

How the results depend on the processing

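The counts of 35 rises and 4 falls stayed within 1.5 times under every scaling, filter and test tried. The exception was DESeq2, which called 2 falls (1 in the large subunit). Leaving out the 29 genes with exon overlap on the other strand left 49 genes with 19 rises. Of these rises 12 were in the large and 7 in the small subunit. The share that rose was 38.8% of the 49 genes, 55.2% of the 29 left out and 44.9% of all 78. What part the overlap had in this was not tested. The median log2 fold change was 0.17 with upper quartile scaling, 0.17 over genes with a mean of at least 10 CPM and 0.16 without scramble replicate 1; its range without 1 library was 0.16 to 0.24. Without 1 library the rises ranged from 26 to 39 and the falls from 3 to 4. In the large subunit they ranged from 17 to 27 and from 2 to 3, and in the small subunit from 9 to 11, with 1 fall each time. Of the 39 called genes 25 were called in all 11 alternatives (23 higher and 2 lower, MRPS35 and MRPL57), and all 39 kept their direction. Besides the 11 genes near 0 whose sign changed, as said in the results, values that changed sign were those of MRPS18A (-0.037 without IRF2BP2 shRNA replicate 2, and up to 0.22 without another library), PTCD3 (-0.0066 with upper quartile scaling) and NRF1 (-0.13 without IRF2BP2 shRNA replicate 1, and up to 0.27 without another), none of them called; the cause was not tested.

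With the replicate number as a block, 37 genes rose and 4 fell. The block added the calls of MRPL54 (adjusted p = 0.0296) and MRPL1 (0.0409) and ended that of TACO1 (0.0721). The deviations of same-numbered libraries had a correlation of 0.060 across genes, over 2 pairs, so the numbers were not taken to pair the libraries.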
